A study of Homo sapiens with 4 samples.

Results

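The genes described here are 36 members of the unfolded protein response and the integrated stress response, chosen by symbol among 18417 genes measured. The levels come from 4 Affymetrix whole-transcript arrays of human prostate cancer cells, with 1 array per group and therefore no replicate, error or test across samples. The first array held LTAD cells transfected with an siRNA against PSF, the RNA-binding protein encoded by SFPQ, and the second held LTAD cells given a control siRNA. The others held untransfected LTAD cells and LNCaP cells. LNCaP is an established androgen-responsive line and LTAD was derived from it by long androgen deprivation. The LTAD line was kept in RPMI free of phenol red, its serum (10%) stripped of hormones with charcoal, and the LNCaP cells had spent 24 h with 2.5% of such serum. Line and serum therefore cannot be told apart in a comparison of LTAD with LNCaP. LTAD is a single subline, and how many cultures stood behind each array was not given in the sources used here.

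Secreted and membrane proteins fold in the endoplasmic reticulum (ER), and unfolded protein there is sensed by IRE1, ATF6 and PERK. IRE1 splices the XBP1 transcript and ATF6 is released by cleavage, and both then switch on genes of ER chaperones and of ER-associated degradation. PERK phosphorylates eIF2alpha, as does GCN2 when amino acids are short, which lowers general translation and raises translation of ATF4. ATF4 switches on genes for amino acid transport and synthesis and also a set of stress effectors. Since XBP1 splicing, ATF6 cleavage and ATF4 translation come after transcription, gene-level array values of these factors do not report their activity.

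The promoter sequences of the members show the elements on which these arms act, and some that lie before a transcript start are printed here to show which members carry which element. RefSeq promoters (GRCh38.p14, 250 bases before to 50 after a transcript start) were found for 33 of the 36 members. The ER stress response element ERSE, searched on both strands as CCAAT, 9 bases of any kind and CCACG, was present for 7 of these 33 genes and for 0.0916% of all 27305 genes with a promoter. ERSE-II, searched as ATTGG, any base and CCACG, was present for 3 members and for 0.0696% of genes. ERSE was found for HSPA5, HSP90B1, CALR, CANX, PDIA6, CRELD2 and XBP1, and ERSE-II for HERPUD1, SDF2L1 and HYOU1. In the sequences below, capitals mark the fixed letters of ERSE, or of its reverse complement.
HSPA5, chr9:125241371-125241429, minus strand: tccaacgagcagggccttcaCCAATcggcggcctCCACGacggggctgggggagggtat
HSP90B1, chr12:103930196-103930254, plus strand: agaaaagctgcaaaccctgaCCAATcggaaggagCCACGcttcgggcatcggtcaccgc
CALR, chr19:12938364-12938422, plus strand: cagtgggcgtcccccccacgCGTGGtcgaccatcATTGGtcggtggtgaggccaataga
CRELD2, chr22:49918534-49918592, plus strand: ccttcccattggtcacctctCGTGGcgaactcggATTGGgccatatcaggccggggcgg
XBP1, chr22:28800583-28800641, minus strand: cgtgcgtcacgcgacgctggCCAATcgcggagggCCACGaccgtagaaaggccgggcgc

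ERSE-II places the same CCACG letters next to an ATTGG, and capitals below mark its fixed letters on either strand.
HERPUD1, chr16:56932005-56932055, plus strand: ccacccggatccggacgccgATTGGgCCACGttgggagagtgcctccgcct
SDF2L1, chr22:21642094-21642144, plus strand: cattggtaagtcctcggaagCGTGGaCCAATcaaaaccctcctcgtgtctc
HYOU1, chr11:119057254-119057304, minus strand: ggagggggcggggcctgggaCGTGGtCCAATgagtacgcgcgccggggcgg
The C/EBP-ATF element, which binds ATF4 in dimers with C/EBP factors, was searched as TGATG, any base and AA, and was found for ASNS, CHAC1, ATF3, SLC3A2 and HERPUD1, and for 4.46% of all genes. Capitals mark its fixed letters on either strand in the promoters of ASNS and CHAC1.
ASNS, chr7:97872449-97872496, minus strand: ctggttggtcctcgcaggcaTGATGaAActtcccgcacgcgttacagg
CHAC1, chr15:40953242-40953289, plus strand: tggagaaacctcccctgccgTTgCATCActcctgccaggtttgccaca
The XBP1-binding element UPRE, searched as TGACGTGG, was found for HYOU1, where it overlaps an ERSE-II, and for 0.927% of all genes. SHMT2, SLC7A11 and PDIA3 were the members with no promoter to search. Among the other amino acid genes none had an ERSE or ERSE-II match, and ASNS and SLC3A2 had a C/EBP-ATF match. These matches are descriptions of letters and not of bound sites. Since the members were chosen as genes of these responses, the shares beside all genes are not a test of enrichment.

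**Figure D1:**
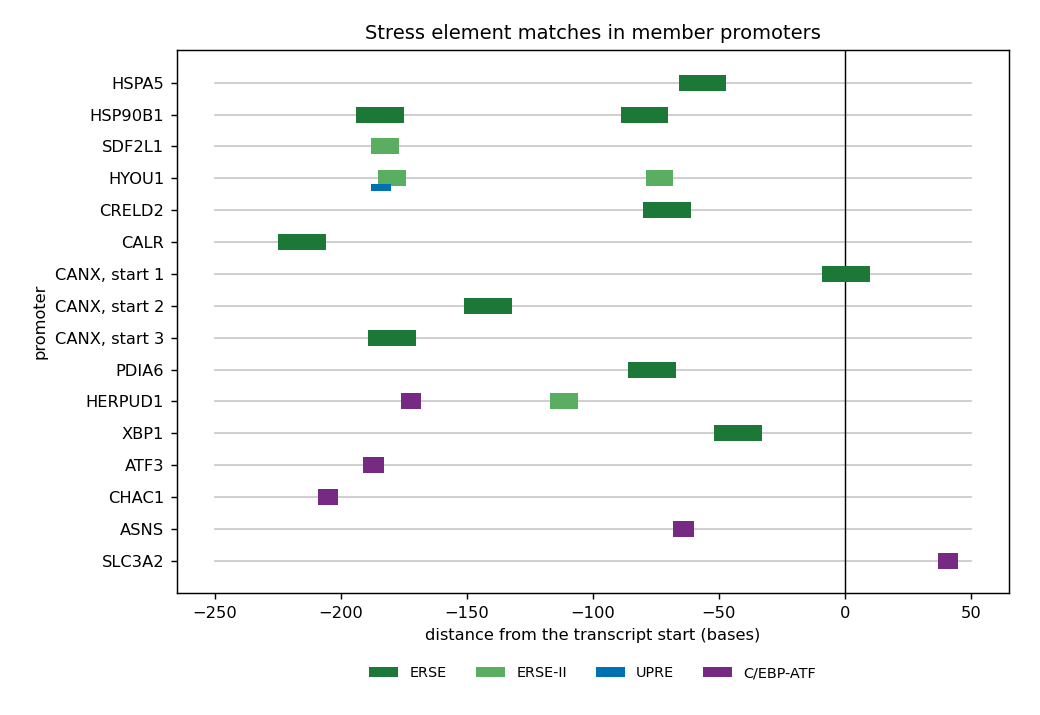
Positions of the searched elements in the promoters of members that hold at least 1, in bases from the transcript start at 0. Each row is a promoter, with several rows for CANX, whose transcript starts differ, and HERPUD1 carries both an ERSE-II and a C/EBP-ATF match.

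On the array, 35 of the 36 members were measured by a probe set that names a single gene, and PDIA3, an ER disulfide isomerase, was not, since its probe sets also name a pseudogene. Levels are log2 values after quantile normalization of the 4 arrays, which gives them 1 common distribution. A gene was kept if it reached 7.23, the median over all genes and arrays, on at least 1 array. This kept 10117 genes, among them 32 members, of which 30 reached that value on all 4 arrays and CHAC1 and VLDLR on 3. ATF3, an early stress factor, PPP1R15A, the eIF2alpha phosphatase subunit GADD34, and SLC7A5, the large neutral amino acid transporter LAT1, were under it on every array, so their levels were not shown to be above background. ATF3 read between 5.85 and 6.64, PPP1R15A between 6.61 and 6.99 and SLC7A5 between 6.56 and 7.06.

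The siRNA target SFPQ read 9.87 in siPSF LTAD, 11.23 in siControl LTAD, 10.82 in untransfected LTAD and 10.83 in LNCaP. Of 9 luminal prostate markers, 5 were measured, and KLK3 was the most unequal of them, at 7.11 in siPSF LTAD, 7.47 in siControl LTAD, 11.06 in untransfected LTAD and 12.89 in LNCaP. KRT8, KRT18, HOXB13 and KLK2 stayed above 7.23 on all 4 arrays. Of the markers of basal, neuroendocrine, stromal, endothelial and immune cells, the neuroendocrine, stromal and immune lists each had 1 member above 7.23 on each array, and CHGA, SYP and PTPRC were under it throughout. The neuroendocrine marker above it was ENO2, an enzyme of glycolysis, at 10.52 in siPSF LTAD, 9.67 in siControl LTAD, 10.29 in untransfected LTAD and 9.01 in LNCaP. The immune marker above it was CD68, at 7.75 in siPSF LTAD, 7.57 in siControl LTAD, 8.11 in untransfected LTAD and 8.70 in LNCaP. ENO2 was thus 1.80-fold higher with siPSF than with siControl and 2.43-fold higher in LTAD than in LNCaP, CD68 was 2.18-fold lower in siControl LTAD than in LNCaP, and their part in the results was not tested. The basal marker KRT14 was above it in siPSF LTAD alone, at 7.36, and 0 of 3 endothelial markers reached it. As deposited, the array medians were 6.04 for siPSF LTAD and 5.98 for siControl LTAD, against 7.2 for untransfected LTAD and 6.91 for LNCaP. In comparisons of a transfected with an untransfected array, transfection and whatever set the columns apart cannot be told apart.

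Across the 4 arrays after quantile normalization, the stress response genes had their lowest level mostly in untransfected LTAD and their highest mostly in siControl LTAD. Statements below on the order of the arrays hold for this scale unless the deposited values are named. Untransfected LTAD was lowest for 25 of the 32 kept members, against 33.6% of all kept genes, and siControl LTAD was highest for 18, against 25.6%. Of the 13 measured chaperone genes 10 were lowest in untransfected LTAD, as were 6 of the 7 kept amino acid genes and 3 of the 4 kept stress effectors. On the deposited values, where both transfected columns had lower medians, fewer members were lowest in untransfected LTAD or highest in siControl LTAD. Most chaperones then had their lowest level in siPSF LTAD. After quantile normalization the stress effectors parted from the chaperones and the amino acid genes at the upper end. The chaperones were highest in siControl LTAD for 10 of 13 and the amino acid genes for 5 of 7. All 4 kept stress effectors (DDIT4, TRIB3, CHAC1 and VLDLR) were highest in siPSF LTAD, against 24.6% of kept genes. On the deposited values DDIT4 kept this place, while TRIB3 and CHAC1 were highest in LNCaP and VLDLR in untransfected LTAD.

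**Figure D2:**
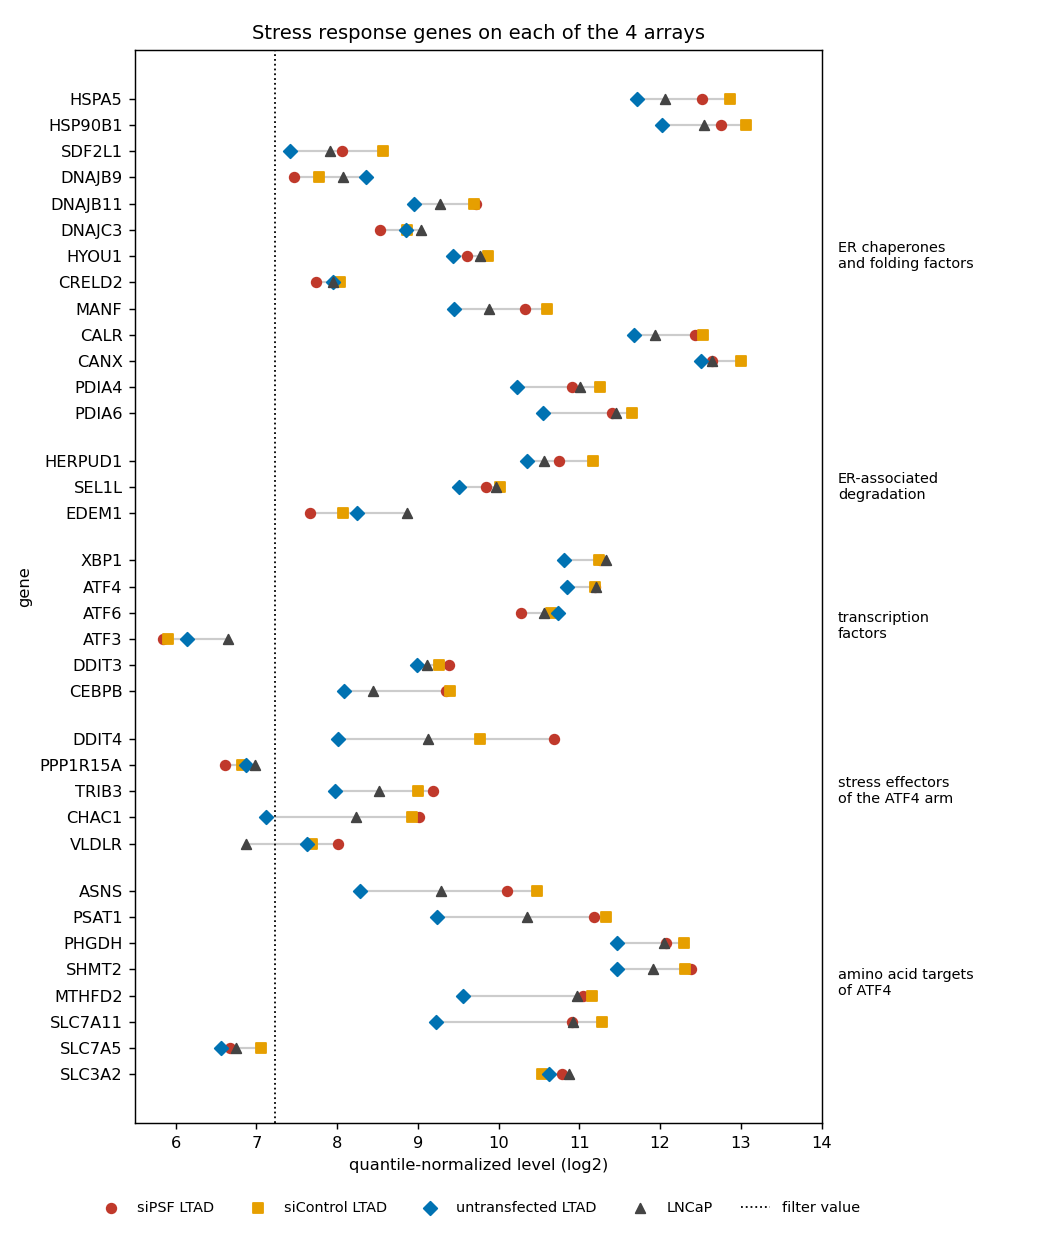
Level of each of the 35 measured members on the 4 arrays, as quantile-normalized log2 values, grouped by role. Blue diamonds (untransfected LTAD) lie leftmost for most chaperones and amino acid genes, ASNS, PSAT1 and SLC7A11 span about 2 log2 units, and the dotted line marks the filter value of 7.23.

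The comparison of siPSF with siControl asked what knockdown of PSF does in LTAD cells. Here most chaperones and the kept stress effectors of the ATF4 arm went opposite ways by small amounts. Of the 16 kept genes of ER folding and ER-associated degradation, 15 were lower with siPSF, where 53.1% of all kept genes were, and all 4 kept stress effectors were higher, where 46.9% were. PPP1R15A, the effector under the filter value, was lower with siPSF by 0.21. With each array centred on its median, the CHAC1 difference was -0.01. The 13 chaperones had a median difference of -0.30, the 3 degradation genes -0.42, the amino acid genes -0.15 and the stress effectors 0.25, against -0.02 over all kept genes. No member was 2-fold apart, where 0.089% of kept genes passed that threshold upward and 0.722% downward. Past a smaller threshold of 0.32 log2 units, 10 of the 32 members were lower and 1, DDIT4, was higher, against 11.5% and 5.35% of kept genes.

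Among the chaperones, SDF2L1, an ER-resident partner of chaperone complexes, had the lowest difference. It read 8.06 in siPSF LTAD, 8.57 in siControl LTAD, 7.42 in untransfected LTAD and 7.92 in LNCaP. HSPA5 encodes BiP, the main Hsp70 chaperone of the ER, and read 12.52 in siPSF LTAD, 12.86 in siControl LTAD, 11.72 in untransfected LTAD and 12.06 in LNCaP. After quantile normalization both were thus higher in either transfected array than in the untransfected ones. The siPSF level lay under siControl by 0.50 for SDF2L1 and 0.35 for HSPA5. On the deposited values SDF2L1 was lowest in siPSF LTAD and highest in LNCaP, and the HSPA5 level in siPSF LTAD lay under that in LNCaP. HSP90B1, the ER Hsp90 GRP94, read 12.76 in siPSF LTAD, 13.06 in siControl LTAD, 12.03 in untransfected LTAD and 12.55 in LNCaP. MANF, an ER protein that can be secreted, read 10.33 in siPSF LTAD, 10.60 in siControl LTAD, 9.45 in untransfected LTAD and 9.88 in LNCaP. These genes kept the order of arrays seen for HSPA5.

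The disulfide isomerases PDIA4 and PDIA6, which form disulfide bonds in folding proteins, differed from HSPA5 in that LNCaP lay near the transfected arrays. PDIA4 read 10.91 in siPSF LTAD, 11.26 in siControl LTAD, 10.23 in untransfected LTAD and 11.01 in LNCaP. PDIA6 read 11.41 in siPSF LTAD, 11.66 in siControl LTAD, 10.55 in untransfected LTAD and 11.46 in LNCaP. For both, untransfected LTAD was the array that stood lowest, although on the deposited values PDIA4 was lowest in siPSF LTAD. The other chaperones with siPSF under siControl were CANX (difference -0.36), the membrane-bound lectin calnexin, DNAJC3 (-0.34), a co-chaperone that restrains PERK, and DNAJB9 and CRELD2 (-0.30 each). HYOU1, the nucleotide exchange factor of BiP, differed by -0.25 and CALR, the soluble lectin calreticulin, by -0.10. DNAJB11, a co-chaperone of BiP, was the exception in its group with a difference of 0.02, which was -0.0037 on the deposited values.

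HERPUD1 takes part in degradation of misfolded ER proteins and is regulated by both arms. It read 10.75 in siPSF LTAD, 11.17 in siControl LTAD, 10.35 in untransfected LTAD and 10.57 in LNCaP. EDEM1, a lectin that guides glycoproteins to degradation, read 7.66 in siPSF LTAD, 8.08 in siControl LTAD, 8.24 in untransfected LTAD and 8.86 in LNCaP. Both were lower by 0.42 with siPSF than with siControl, but EDEM1 was highest in LNCaP and HERPUD1 in siControl LTAD. SEL1L, the adaptor of the HRD1 ubiquitin ligase, differed by -0.17.

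The transcription factors were close between siPSF and siControl, with a median of 0.0038 over the 5 kept. ATF4 read 11.20 in siPSF LTAD, 11.19 in siControl LTAD, 10.85 in untransfected LTAD and 11.21 in LNCaP. XBP1 read 11.25 in siPSF LTAD, 11.25 in siControl LTAD, 10.81 in untransfected LTAD and 11.33 in LNCaP. Their differences between siPSF and siControl were 0.0038 and 0.0053, and on these probe sets both were lowest in untransfected LTAD. On the deposited values both were lowest in siControl LTAD. A second ATF4 probe set did not put LTAD below LNCaP, at 10.22 in siPSF LTAD, 10.16 in siControl LTAD, 9.753 in untransfected LTAD and 9.742 in LNCaP. ATF6 read 10.28 in siPSF LTAD, 10.65 in siControl LTAD, 10.74 in untransfected LTAD and 10.57 in LNCaP. It was the factor furthest below siControl, with a difference of -0.36. DDIT3, the pro-apoptotic factor CHOP, read 9.39 in siPSF LTAD, 9.27 in siControl LTAD, 8.99 in untransfected LTAD and 9.12 in LNCaP, a difference of 0.12 with siPSF. CEBPB, which dimerises with ATF4, read 9.35 in siPSF LTAD, 9.40 in siControl LTAD, 8.08 in untransfected LTAD and 8.44 in LNCaP. Its 2 transfected arrays were close to each other and well above both untransfected ones.

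The stress effectors were led by DDIT4 (REDD1), an inhibitor of mTORC1 that responds to many stresses besides ATF4. It read 10.68 in siPSF LTAD, 9.77 in siControl LTAD, 8.01 in untransfected LTAD and 9.12 in LNCaP. The siPSF level was 1.87-fold above siControl, which ranked 13 from the top among 10117 kept genes, and no 2 arrays were alike for this gene. TRIB3, a pseudokinase that dampens ATF4 signalling, read 9.189 in siPSF LTAD, 9.001 in siControl LTAD, 7.973 in untransfected LTAD and 8.522 in LNCaP. CHAC1, which breaks down glutathione, read 9.01 in siPSF LTAD, 8.93 in siControl LTAD, 7.12 in untransfected LTAD and 8.24 in LNCaP. VLDLR, a lipoprotein receptor induced through PERK and ATF4, read 8.01 in siPSF LTAD, 7.70 in siControl LTAD, 7.63 in untransfected LTAD and 6.87 in LNCaP. TRIB3, CHAC1 and VLDLR were thus higher with siPSF by 0.19, 0.08 and 0.31, and VLDLR was the effector for which LNCaP and not LTAD was lowest.

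Among the amino acid genes, siPSF lay below siControl for ASNS, PSAT1, PHGDH, MTHFD2 and SLC7A11 and above it for SLC3A2 and SHMT2. ASNS, asparagine synthetase, read 10.11 in siPSF LTAD, 10.48 in siControl LTAD, 8.29 in untransfected LTAD and 9.29 in LNCaP. SLC7A11, the cystine importer xCT, read 10.91 in siPSF LTAD, 11.28 in siControl LTAD, 9.23 in untransfected LTAD and 10.92 in LNCaP. Each was lower by 0.37 with siPSF, a small step beside their gap to untransfected LTAD. SLC3A2, the heavy chain shared by xCT and LAT1, read 10.79 in siPSF LTAD, 10.54 in siControl LTAD, 10.62 in untransfected LTAD and 10.87 in LNCaP. It was the amino acid gene least alike the others, with all 4 arrays inside 0.33 log2 units. PHGDH and PSAT1, enzymes of serine synthesis, differed by -0.21 and -0.15, MTHFD2, a mitochondrial folate enzyme, by -0.11, and SHMT2, which works beside it, by 0.06.

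**Figure D3:**
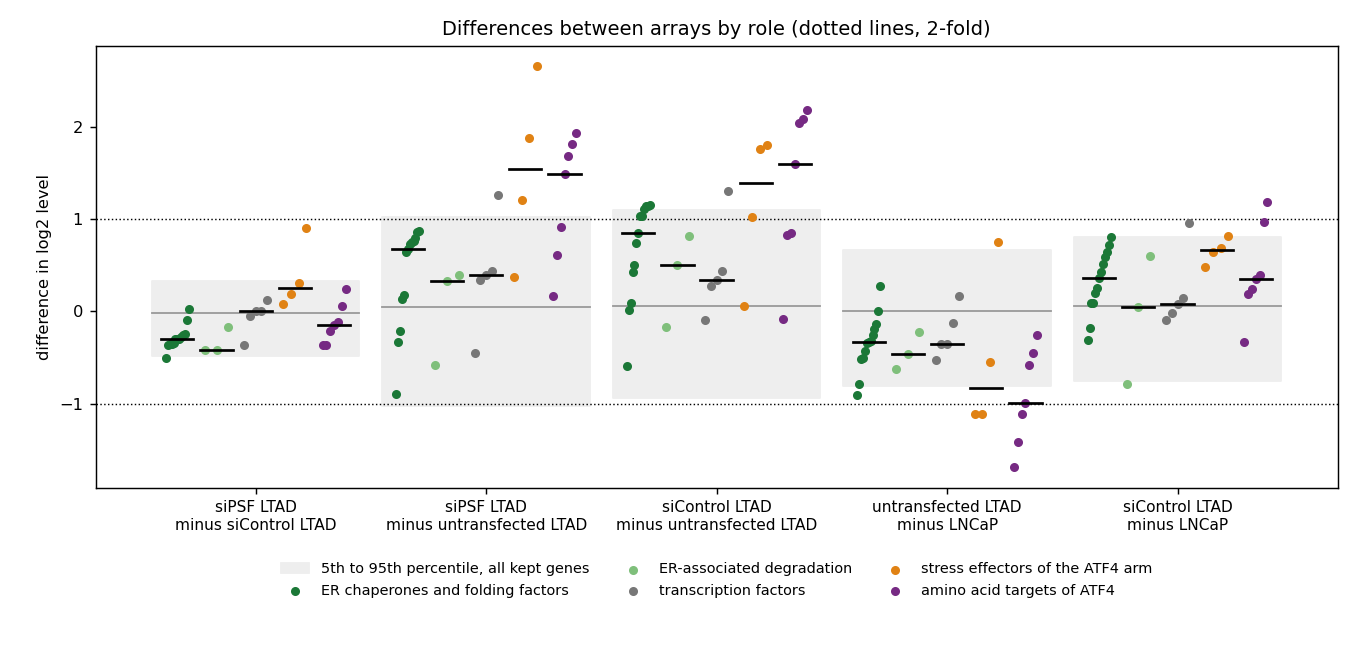
Difference in log2 level of each of the 32 kept members in 5 comparisons, coloured by role, with a black bar at each role's median and a grey band from the 5th to the 95th percentile of all kept genes. In siPSF minus siControl all chaperones but DNAJB11 lie below 0 and the stress effectors above it. In siControl minus untransfected LTAD some, not all, of the chaperones, amino acid genes and stress effectors lie past 2-fold, as does CEBPB.

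Set against untransfected LTAD in place of siControl, the siPSF array read higher for 27 of 32 members, against 53.9% of kept genes, so the direction for the chaperones depended on which LTAD array siPSF was set against. The chaperone median was 0.68, the amino acid median 1.49 and the stress effector median 1.55, against 0.05 over all kept genes. At least 2-fold higher were 8 members (CEBPB, DDIT4, TRIB3, CHAC1, ASNS, PSAT1, MTHFD2 and SLC7A11), against 5.4% of kept genes, and none was 2-fold lower, against 5.2%. Past 0.32 log2 units, 24 were higher, against 29.5%, and 4 lower, against 24.5%. DDIT4 was 6.37-fold higher in siPSF than in untransfected LTAD. DNAJB9 and EDEM1 were lower by 0.89 and 0.58. On the deposited values the median of all kept genes in this comparison was -0.90, and 13 of the 32 members had the opposite sign. Of the 33 members kept on that scale 2 were at least 2-fold higher and 6 lower. These counts hold the shift of all genes and have no all-gene share beside them, so they are not a result about the members. Relative to the all-gene median, 27 members were above it on both scales.

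SiControl and untransfected LTAD are the same line with and without transfection, and the stress response genes differed between them. This comparison shares an array with each of the others. After quantile normalization 28 of 32 members were higher in siControl, against 55.3% of kept genes, with a median of 0.84 against 0.06 over all kept genes. At least 2-fold higher were 14 of 32 members, against 6.34% of kept genes, and none was 2-fold lower, against 4.36%. On the deposited values 3 of 33 kept were at least 2-fold higher and 3 lower. The 14 were 6 chaperones (HSPA5, HSP90B1, SDF2L1, MANF, PDIA4 and PDIA6), 4 amino acid genes, the stress effectors DDIT4, TRIB3 and CHAC1, and CEBPB, with CHAC1 counted although its level in untransfected LTAD was under 7.23. Past 0.32 log2 units, 24 members were higher, against 30.5%, and 1 lower, against 22.6%. KLK3 differed in this comparison too, at -3.59, as did the summed level of the 5 luminal markers, at 49.99 in siControl LTAD and 55.82 in untransfected LTAD, and their part in the result was not tested.

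The amino acid genes stood further from untransfected LTAD than the chaperones. ASNS was 4.55-fold higher in siControl, ranking 44 from the top of 10117 kept genes, and SLC7A11 was 4.14-fold higher, ranking 62. PSAT1 read 11.18 in siPSF LTAD, 11.33 in siControl LTAD, 9.24 in untransfected LTAD and 10.35 in LNCaP, so that siControl was 4.27-fold above untransfected LTAD. MTHFD2 read 11.05 in siPSF LTAD, 11.16 in siControl LTAD, 9.56 in untransfected LTAD and 10.97 in LNCaP, and its 2 probe sets gave differences of 1.602 and 1.48 between siControl and untransfected LTAD. The median of the amino acid genes was 1.602 and that of the chaperones 0.85, and 4 of 7 amino acid genes lay above the highest chaperone, MANF at 1.15. SHMT2 and PHGDH differed by 0.85 and 0.83, and SLC3A2 by -0.08.

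The chaperones were not alike in this comparison. DNAJB9, a co-chaperone that in mouse cells depends on spliced XBP1, was lower in siControl by 0.59 and EDEM1, another such gene, by 0.16, while DNAJC3 and CRELD2 were nearly equal at 0.01 and 0.09. The 9 genes of ER folding and degradation with an ERSE or ERSE-II match had a median of 0.85 and ranged from 0.09 to 1.15. The 7 without either had a median of 0.50 and ranged from -0.59 to 1.15, with MANF at the upper end. Between siPSF and siControl the medians of these 2 sets were both -0.30.

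The size and for some members the sign of these differences depended on the scale. On the deposited values the median of all kept genes in siControl against untransfected LTAD was -0.87, and 10 of the 32 members had the sign opposite to that after quantile normalization, XBP1 and ATF4 among them at -0.32 and -0.42. ASNS, PSAT1 and SLC7A11 were higher in siControl on the deposited values as well, by 1.28, 1.27 and 1.23, and HSPA5 by 0.47. Relative to the all-gene median, 26 members were above it and 6 below on either scale.

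**Figure D4:**
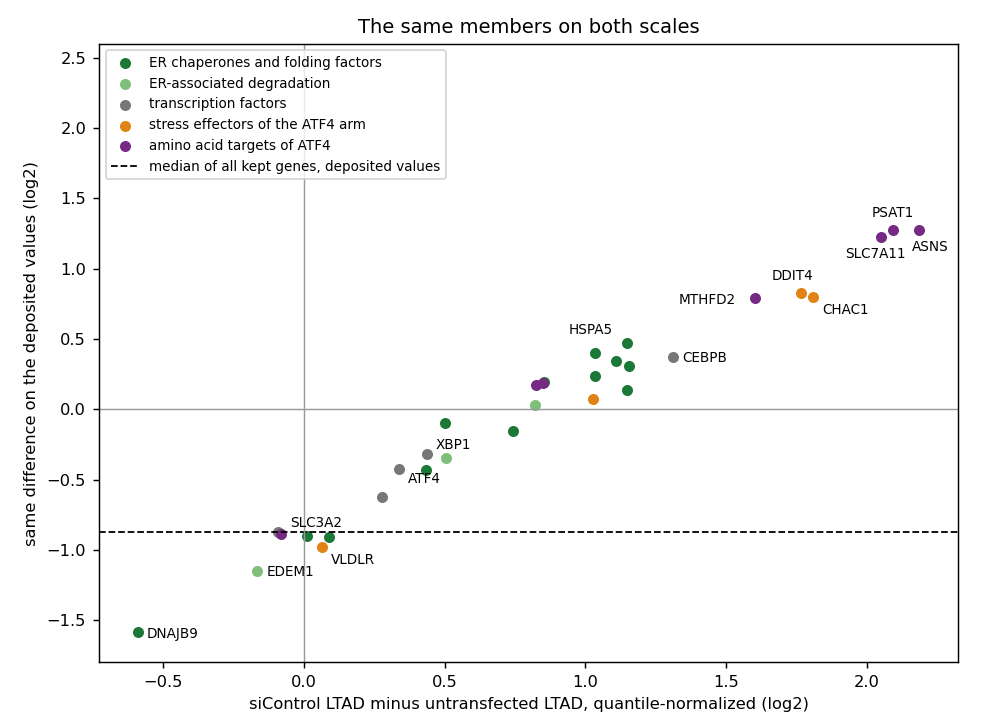
Difference between siControl LTAD and untransfected LTAD for the 32 kept members after quantile normalization (horizontal) and on the deposited values (vertical), both in log2. The dashed line is the deposited median of all kept genes at -0.87, and most members lie above it. ASNS, PSAT1 and SLC7A11 lie at the upper right and DNAJB9 and EDEM1 at the lower left.

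Between untransfected LTAD and its parent line LNCaP, most stress response genes were lower in LTAD. Of the 32 kept members 28 were lower, against 49.5% of kept genes, with a median of -0.44 against 0.0038 over all kept genes. At least 2-fold lower were 5 of 32 (SLC7A11, MTHFD2, PSAT1, CHAC1 and DDIT4), against 3.43% of kept genes, and none was 2-fold higher, against 2.2%. Past 0.32 log2 units, 21 were lower, against 19.4%, and 1 higher, against 17.5%. SLC7A11 was 3.24-fold lower in LTAD, ranking 110 from the bottom of 10117 kept genes, MTHFD2 2.67-fold, PSAT1 2.17-fold and DDIT4 2.16-fold. ASNS was just short of the threshold with a difference of -0.999.

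All 7 kept amino acid genes were lower in LTAD, with a median of -0.999, and 4 of them lay below the lowest chaperone, PDIA6 at -0.91. The chaperones had a median of -0.34, with 11 of 13 below 0, and none reached 2-fold. PDIA4 differed by -0.78, HSP90B1 by -0.52 and HSPA5 by -0.34, while DNAJB9 was higher in LTAD by 0.28. Of the other members, VLDLR was higher by 0.76 with its LNCaP level under 7.23, and ATF6 by 0.17. On the deposited values the all-gene median was 0.18, 28 members lay below it, and 2 of 33 kept on that scale were at least 2-fold lower. No all-gene share stands beside that last count.

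SiControl LTAD gave another picture against the same LNCaP array. Of the 32 members 26 were higher in siControl LTAD, against 56.4% of kept genes, with a median of 0.36 against 0.06 over all kept genes, so the lower levels in LTAD were not seen in this LTAD array. ASNS was the member at least 2-fold higher, at 2.28-fold, against 2.68% of kept genes, and none was 2-fold lower, against 2.95%. Past 0.32 log2 units, 17 were higher, against 25.9%, and 2 lower, against 18.0%. PSAT1, CEBPB and VLDLR followed at 0.98, 0.96 and 0.82, and EDEM1 was lowest at -0.79. The medians of chaperones and amino acid genes were equal here at 0.36 each. On the deposited values 19 of the 32 members had the opposite sign, with an all-gene median of -0.69 and 26 members above that median. On that scale 0 of 33 kept were at least 2-fold higher and 3 lower, counts that hold this shift and have no all-gene share beside them.

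The comparisons of siPSF with siControl and of untransfected LTAD with LNCaP share no array, so members can be followed through both. Lower in siPSF than in siControl and also lower in LTAD than in LNCaP were 19 of the 32 members, against 29.4% of kept genes. Taken singly, 22 members were lower with siPSF and 28 lower in LTAD, against 53.1% and 49.5% of kept genes. An overlap near 19, and its split by role, follow from these single counts, so they show no link between the comparisons. The 19 held 10 of 13 chaperones, all 3 degradation genes and 5 of 7 amino acid genes. None of the 4 kept stress effectors was among them: DDIT4, TRIB3 and CHAC1 were higher with siPSF and lower in LTAD, and VLDLR was higher in both.

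**Figure D5:**
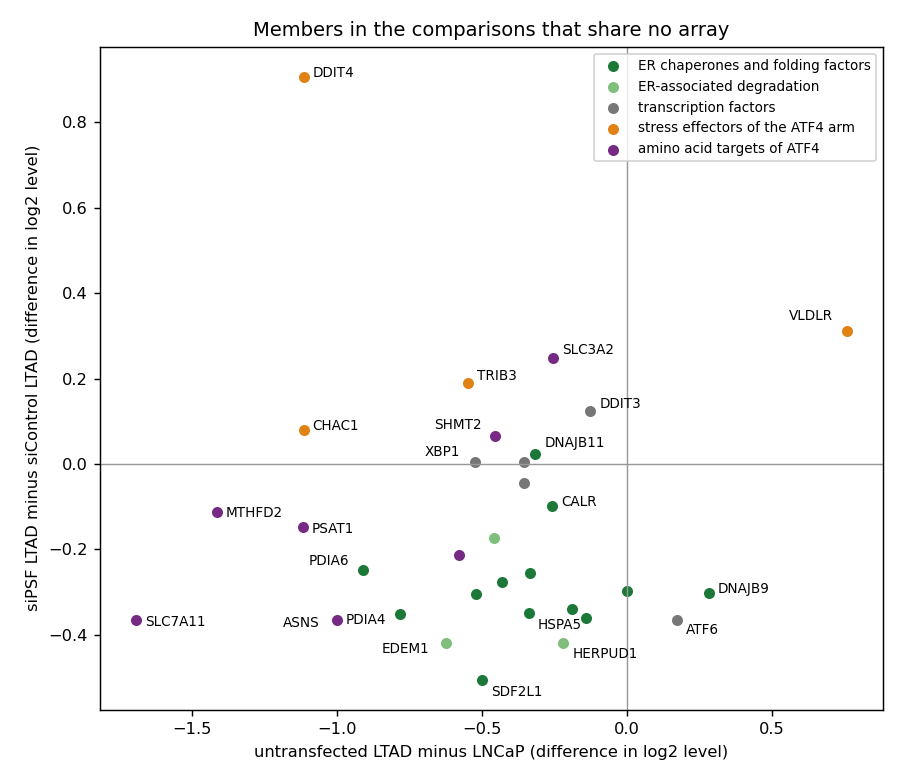
Difference between untransfected LTAD and LNCaP (horizontal) against that between siPSF and siControl LTAD (vertical) for the 32 kept members, both in log2 after quantile normalization. Most chaperones and degradation genes lie at the lower left, DDIT4 at the upper left at 0.91, and VLDLR is the member at the upper right.

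Other genes of these pathways were read from lists that hold no member. Of 26 kept genes of ER folding and degradation, 21 were lower with siPSF than with siControl (median -0.18), against 53.1% of all kept genes, with SELENOS at -0.54 and SSR1 at -0.49 lowest and ERO1A at 0.31 and PDIA5 at 0.13 highest. Unlike the members, they centred near 0 in siControl against untransfected LTAD, with a median of 0.01 and 1 gene, DNAJC10, at least 2-fold higher, against 6.34%. In LTAD against LNCaP their median was -0.0049, with DNAJC10 and ERO1A lowest at -0.97 and -0.56 and SRP19 and OS9 highest at 0.21 and 0.15. The 12 kept sensors and eIF2alpha kinases or their partners had no gene 2-fold apart in any of the 5 comparisons. Among all kept genes, between 0.089% and 6.34% were 2-fold higher in these comparisons and between 0.722% and 5.2% lower. With so few genes, this absence says little about the sensors. For siPSF against siControl they ran from -0.33 for CREB3L2 and -0.12 for ERN1, the gene of IRE1, to 0.25 for CREB3L4 and 0.33 for MBTPS1, a protease that cleaves ATF6. In LTAD against LNCaP they ran from -0.29 for PPP1R15B and -0.18 for ERN1 to 0.17 for EIF2AK4, the gene of GCN2, and 0.19 for CREB3.

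After quantile normalization, the other ATF4 and amino acid stress genes were lowest in untransfected LTAD for 16 of 21 kept, against 33.6% of all kept genes. Of these 21, 6 were at least 2-fold higher in siControl than in untransfected LTAD, against 6.34%, and none was 2-fold lower, against 4.36%, with a median of 0.56. In LTAD against LNCaP, 2 were at least 2-fold lower (GDF15 at -1.28 and EIF4EBP1 at -1.13), against 3.43%, with a median of -0.41. BBC3 and VEGFA were highest in LTAD against LNCaP at 0.72 and 0.20, with the LNCaP level of BBC3 under 7.23 at 6.96. Between siPSF and siControl they split, with KLHL24 at 0.65 and SESN2 at 0.59 highest and SLC1A5 at -0.49 and ATF5 at -0.31 lowest. The 19 cytosolic aminoacyl-tRNA synthetases, which charge tRNAs with amino acids and many of which are ATF4 targets, were lowest in untransfected LTAD for 17 of 19, against the same 33.6%. Their median was 0.53 in siControl against untransfected LTAD, with GARS1 at 1.56, and -0.39 in LTAD against LNCaP, with GARS1 at -0.84 and CARS1 at -0.68 lowest and TARS1 at 0.17 and QARS1 at -0.02 highest. Between siPSF and siControl they ran from -0.42 for FARSB and -0.29 for LARS1 to 0.10 for HARS1 and 0.20 for QARS1.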

How the data were processed

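The authors deposited 1 column of log2 levels per array. The submitters' processing notes name RMA and Affymetrix Expression Console, with version, settings and genome build not given in the sources used here. All 4 columns were quantile-normalized over all 33297 probe sets with pandas 2.3.3 and numpy 2.4.6. Of the probe sets, 19460 named 1 gene, 1754 several and 12083 none here. Symbols were updated through 19429 Entrez matches to RefSeq (GRCh38.p14). Where a gene had several probe sets (769 genes), that of highest mean level stood for it. This gave 18417 genes, and 10117 passed the filter. A single array stood for each group and limits the precision, so log2 differences are described without a test. Members at least 2-fold, and at least 0.32 log2 units, apart were counted beside the same share of all kept genes. All 36 members are accounted for. Values on every array are given for SFPQ, for members at least 2-fold apart in any comparison, for those with the 6 largest differences each way between siPSF and siControl, and for HSPA5, ATF4, XBP1, DDIT3 and ASNS. From each list of other pathway genes the 2 highest and 2 lowest in siPSF against siControl and in LTAD against LNCaP are named. Some, not all, of the other genes at least 2-fold apart were also named, after their values were seen. Members and lists were chosen with earlier results of these data known. The computation was tested on simulated data.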

Additional observations from a re-analysis of the deposited data

How the results depend on the processing

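Medians are over kept members and counts are of members at least 2-fold higher or lower, unless another threshold is named. With the deposited values the medians were -0.25 for LTAD against LNCaP (2 lower), -0.29 for siControl against LNCaP (0 higher, 3 lower), 0.072 for siControl against untransfected LTAD (3 higher, 3 lower) and -0.16 for siPSF against untransfected LTAD (2 higher, 6 lower). The medians of all genes kept on that scale were 0.20, -0.72, -0.92 and -0.94 in the same order, so this alternative shifts all genes. With each array centred on its median, the same 4 medians were -0.55, 0.65 (4 higher), 1.32 and 1.01 (17 higher). Centring shifts the kept genes as a whole too, so these medians do not show larger member differences than the main ones. The 2-fold counts under both alternatives hold such shifts and have no all-gene share beside them. With untransfected LTAD in place of siControl, siPSF had a median of 0.66 and 8 higher. With siControl in place of untransfected LTAD against LNCaP, the median was 0.36, with 1 higher and 0 lower. Past 0.32 log2 units the counts higher and lower were 1 and 10 for siPSF against siControl, 1 and 21 for LTAD against LNCaP, 17 and 2 when siControl was set against LNCaP, 24 and 1 with siControl against untransfected LTAD, and 24 and 4 for siPSF against untransfected LTAD. At 1.5-fold they were 1 and 0 for siPSF against siControl, 1 and 9 for LTAD against LNCaP, 11 and 1 with siControl against LNCaP, 19 and 1 with siControl against untransfected LTAD, and 18 and 1 for siPSF against untransfected LTAD. The chaperone median minus the amino acid median was 0.66 (0.45 with no filter) in LTAD against LNCaP, -0.75 in siControl against untransfected LTAD (-0.65 on deposited values, -0.37 with no filter), -0.81 for siPSF against untransfected LTAD (-0.52 with no filter, -0.97 with the degradation genes added) and 0.0026 for siControl against LNCaP (-0.11 with means). The alternatives with no filter and with added degradation genes were chosen after seeing the data for this difference, and without the filter SLC7A5 enters. Beyond the alternatives named, the cause of a change was not tested. Filters and the mean over probe sets left the 5 medians within 0.1 and moved no count by over 1.5 times. Of the 160 differences of single kept members over the 5 comparisons, 127 moved by over 0.1 on the deposited values, 122 with centring and 2 with the mean over probe sets. No paired analysis was possible because each group held 1 array and no replicate number.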

Other observations

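Heat shock response genes driven by HSF1, whose products fold proteins in the cytosol or, for HSPD1 and HSPE1, in mitochondria, were mostly lowest in untransfected LTAD as well. After quantile normalization, 11 of 13 kept were lowest in untransfected LTAD and 10 highest in siControl LTAD, against 33.6% and 25.6% of all kept genes. In siControl against untransfected LTAD, 12 of 13 were higher, with a median of 0.55 and CHORDC1 and HSPH1 highest at 1.49 and 1.04. In LTAD against LNCaP, 12 of 13 were lower, with a median of -0.23, CHORDC1 and HSPE1 lowest at -0.92 and -0.79, and BAG3 and HSP90AA1 highest at 0.37 and -0.01. Between siPSF and siControl, 12 of 13 were lower, with a median of -0.12, CHORDC1 at -0.47 and HSPE1 at -0.25 lowest, and HSPB1 at 0.23 and HSPA8 at -0.03 highest. Over all kept genes 55.3%, 49.5% and 53.1% went that way in these comparisons.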
